A study of Mus musculus with 3 samples.

Results

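Collagens are the main structural proteins of the extracellular matrix, and 42 of the 18193 genes measured on the arrays belong to this family. A gene was taken as a collagen gene when its symbol in the platform annotation has the form of Col, a type number, the letter a and a chain number, and when at least 1 probe set names it alone. These 42 genes were read by 82 probe sets. The rule itself uses symbols only, but the family was chosen with earlier results of these data known. They divide into 11 fibrillar genes, 9 network-forming genes, 9 genes of the FACIT class (fibril-associated collagens with interrupted helices) and 13 others. Of the 45 collagen genes in the class list, Col6a6, Col21a1 and Col28a1 are not analysed here.

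Each collagen molecule is built from chains whose repeats of glycine and 2 further residues wind into a helix, and many types need chains from different genes. Fibrillar collagens form the tensile fibres that fibroblasts deposit, type IV forms the sheet of basement membranes, FACIT collagens decorate fibril surfaces, and type VI forms beaded filaments around cells. Before secretion, the chains are hydroxylated and glycosylated in the endoplasmic reticulum, and afterwards they are trimmed and cross-linked.

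All arrays were made from NIH3T3, an immortalized fibroblast line from embryos of the NIH/Swiss mouse strain that has lost Ink4A and Ink4B, grown with 10% calf serum. The mtYAP cells stably overexpressed mouse YAP with alanine in place of serine 112, which LATS, the Hippo pathway kinase, phosphorylates. The YAP cells stably overexpressed wild-type mouse YAP. Both lines were made with retroviral vectors that carry a Flag tag and puromycin resistance, and the cells that survived selection were used. The control is labelled as untransduced NIH3T3, but 1 label field of this sample refers to embryonic stem cells, and the methods list an empty vector among the retroviruses made. If the control was untransduced as labelled, the presence of extra YAP, infection and puromycin selection cannot be told apart. The paper also reports that both overexpressing lines kept growing past confluence, with more overlaid cells than control. Its array methods do not state the cell density at RNA collection. Effects of density or growth state and of extra YAP therefore cannot be told apart here. Each condition had 1 Affymetrix mouse array. Replicate error is therefore unknown, no test was run, and each difference is between individual arrays. Both comparisons with control share the same control array, and both comparisons that involve mtYAP share the same mtYAP array.

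Levels are on the log2 scale, as the mean over the probe sets of a gene, and differences are log2 differences, where 1 is 2-fold. Genes that reached a level of 6 on at least 1 array are called clearly expressed here, and lower values are called near background. The level of 6 is a chosen limit, and background was not measured. The median probe set read 4.57 in mtYAP, 4.56 in YAP and 4.6 in control. The correlation between arrays over 45037 probe sets lay between 0.969 and 0.988. Yap1 read 7.89 in mtYAP, 8.06 in YAP and 8.57 in control, and since it is not known whether its 2 probe sets read the introduced coding sequence, they check neither label. Of 7 fibroblast markers, 6 were at 6 or above on each array, and Fap was below it on all. Their summed level was 61.9 in mtYAP, 67.8 in YAP and 70.9 in control. Of 31 markers of other cell types, none was at 6 or above in mtYAP or YAP, and 1 was in control, which was Sox9. Among the 31, the embryonic stem cell markers Pou5f1, Nanog, Zfp42 and Sox2 read between 1.75 and 2.96 in control. What the stem cell label field refers to was not tested. The part of either marker list in the collagen levels was not tested.

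In cells overexpressing mtYAP, 9 of the 42 collagen genes (21.4%) lay below a log2 difference of −1 from control, where 4.06% of all genes did. They were Col6a3, Col16a1, Col6a1, Col6a2, Col4a1, Col27a1, Col11a1, Col4a2 and Col12a1. In a culture RNA sample, fewer cells that express a gene and less of its RNA per cell cannot be told apart. No collagen gene lay above 1, where 3.77% of all genes did. In cells overexpressing wild-type YAP, 4 collagen genes (9.52%) lay below −1, against 1.26% of all genes, and none above 1, against 1.36%. These 4 were Col11a1, Col6a3, Col4a2 and Col27a1, and Col4a1 at −0.995 and Col12a1 at −0.9925 lay just short of the limit. Between both overexpressing lines, 4 collagen genes (9.52%) were lower in mtYAP than in YAP by more than 1, against 1.42% of all genes, and none was higher by more than 1, against 0.748%. These shares describe arrays without replicates. The medians over the 42 genes stayed close to 0, at −0.03 in mtYAP and −0.08 in YAP, where all genes had medians of 0.02 in mtYAP and −0.0033 in YAP.

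Differences past the limit lay mostly in the brighter collagen genes. There were 15 collagen genes with a mean level of at least 6 over the arrays, and 7 of them (46.7%) lay below −1 in mtYAP, against 6.8% of all genes at such levels. None lay above 1, against 6.88%. Their median was −0.785 in mtYAP, with −0.01 for all genes at such levels, and −0.36 in YAP, with 0.035 for all. In YAP, 3 of the 15 lay below −1, against 1.43% of all genes at such levels, and none above 1, against 2.42%. The other genes were dimmer. In all, 26 collagen genes stayed under 6 on every array, between 1.76 and 5.21 in mtYAP, 1.85 and 4.855 in YAP and 2.11 and 5.01 in control. Of these 26 genes, 23 differed from control by less than 0.5 in mtYAP and 23 did so in YAP. Col12a1 in mtYAP was alone past the 2-fold limit.

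**Figure D1:**
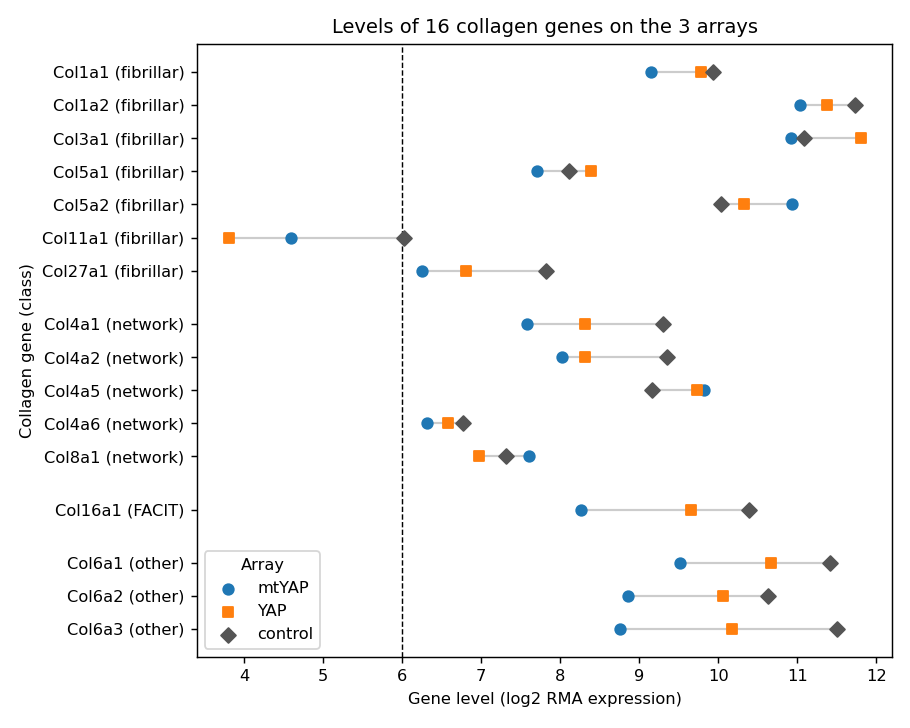
Level on the log2 scale (horizontal axis) of the 16 collagen genes that reached 6 (dashed line) on at least 1 array, with 1 point for each of the mtYAP (circles), YAP (squares) and control (diamonds) arrays and a grey line over their range. The type VI genes, Col16a1, Col1a1, Col1a2, Col4a1, Col4a2, Col4a6 and Col27a1 stand lowest in mtYAP and highest in control. Col5a2, Col4a5 and Col8a1 stand highest in mtYAP.

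The largest difference in mtYAP among gene means was in type VI collagen, whose 3 classical chains, encoded by Col6a1, Col6a2 and Col6a3, assemble into beaded filaments. Col6a3 stood at 8.76 in mtYAP, 10.17 in YAP and 11.50 in control, a difference of −2.74 (6.68-fold lower) in mtYAP and −1.33 (2.51-fold lower) in YAP. Col6a1 stood at 9.52 in mtYAP, 10.67 in YAP and 11.42 in control, with differences of −1.90 (3.73-fold lower) in mtYAP and −0.75 (1.68-fold lower) in YAP. Col6a2 stood at 8.865 in mtYAP, 10.06 in YAP and 10.635 in control, with differences of −1.77 (3.41-fold lower) in mtYAP and −0.575 (1.49-fold lower) in YAP. All of them were lowest in mtYAP and highest in control, and YAP lay between. The difference of mtYAP from YAP was −1.41 for Col6a3, −1.15 for Col6a1 and −1.195 for Col6a2. It does not involve the control array but rests on the same mtYAP array. The probe sets of Col6a2, which has 2, lay at −1.73 and −1.81 from control in mtYAP. The later described type VI chains Col6a4, at 3.89 in mtYAP, 3.805 in YAP and 3.575 in control, and Col6a5, at 1.81 in mtYAP, 1.85 in YAP and 2.22 in control, were near background.

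Since the classical type VI genes stood below control together, the bases before their outermost RefSeq starts are shown, as given in the RefSeq promoter table of GRCm38.p6. They are written 5′ to 3′ along the gene, and capitals mark matches on either strand to GGAATG (the core bound by TEAD, the DNA-binding partner of YAP), to the AP-1 sequence TGANTCA, to the box known as CCAAT, to the TATA sequence TATAAA and to the GC box sequence GGGCGG. They lie at chr10:76726045-76726294 (minus strand), chr10:76623631-76623880 (minus strand) and chr1:90844002-90844221 (minus strand).
Col6a1: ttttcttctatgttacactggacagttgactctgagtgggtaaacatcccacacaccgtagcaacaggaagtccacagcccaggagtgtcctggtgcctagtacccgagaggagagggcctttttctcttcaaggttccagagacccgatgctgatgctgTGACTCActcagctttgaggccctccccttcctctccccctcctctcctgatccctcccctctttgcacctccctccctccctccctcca
Col6a2: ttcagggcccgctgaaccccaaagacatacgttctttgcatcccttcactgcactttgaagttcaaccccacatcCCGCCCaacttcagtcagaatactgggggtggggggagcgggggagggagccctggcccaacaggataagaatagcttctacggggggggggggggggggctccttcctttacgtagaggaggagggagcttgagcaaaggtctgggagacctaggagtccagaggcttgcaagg
Col6a3: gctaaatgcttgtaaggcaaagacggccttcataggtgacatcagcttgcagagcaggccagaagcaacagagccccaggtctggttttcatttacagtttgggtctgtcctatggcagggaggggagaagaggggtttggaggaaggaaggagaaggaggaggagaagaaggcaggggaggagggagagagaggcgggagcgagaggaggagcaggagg
The Col6a1 stretch held an AP-1 match, that of Col6a2 a GC box match and that of Col6a3 none. Col6a2 has a further annotated start just downstream, and a GGAATG match assigned to this gene lies outside the stretch shown. The 3 stretches share no motif of those searched.

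The basement membrane chains of type IV divided by chain. Col4a1 and Col4a2 encode the chains of the common type IV molecule. Col4a1 stood at 7.585 in mtYAP, 8.31 in YAP and 9.305 in control, with differences of −1.72 (3.29-fold lower) in mtYAP and −0.995 (1.99-fold lower) in YAP. Col4a2 stood at 8.02 in mtYAP, 8.31 in YAP and 9.35 in control, with differences of −1.33 (2.51-fold lower) in mtYAP and −1.04 (2.06-fold lower) in YAP. Both stood lowest in mtYAP, and in YAP they lay on both sides of the limit by small margins. Col4a5, which encodes a chain of the less widespread type IV molecules, went the other way. Its level was 9.825 in mtYAP, 9.73 in YAP and 9.165 in control, a difference of 0.66 (1.58-fold higher) in mtYAP and 0.565 (1.48-fold higher) in YAP, short of the 2-fold limit. Col4a6, its partner chain, stood at 6.32 in mtYAP, 6.58 in YAP and 6.77 in control, differences of −0.45 in mtYAP and −0.19 in YAP. Col4a3 and Col4a4 lay under 6, within 0.13 of control in mtYAP.

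By order and strand in RefSeq, Col4a1 and Col4a2 lie head to head in the mouse genome, and so do Col4a5 and Col4a6. Col4a3 and Col4a4 are also neighbours, but the strand of Col4a3 was not available. The pair of Col4a1 and Col4a2 lay on the same side of control in both lines, whereas Col4a5 lay above control and its neighbour Col4a6 below it. The bases before the outermost starts of this divergent pair are shown because its genes differed in direction, with the same motifs in capitals, at chrX:141475169-141475369 (plus strand) and chrX:141474096-141474326 (minus strand), GRCm38.p6.
Col4a5: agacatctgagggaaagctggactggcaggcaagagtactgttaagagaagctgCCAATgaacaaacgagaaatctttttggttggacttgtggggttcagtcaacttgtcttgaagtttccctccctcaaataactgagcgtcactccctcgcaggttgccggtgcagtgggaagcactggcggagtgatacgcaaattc
Col4a6: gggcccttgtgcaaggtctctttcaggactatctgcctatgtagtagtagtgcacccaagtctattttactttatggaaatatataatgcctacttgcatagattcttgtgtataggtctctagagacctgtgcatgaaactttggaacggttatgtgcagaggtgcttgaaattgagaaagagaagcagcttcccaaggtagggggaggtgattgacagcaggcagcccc
The Col4a5 stretch held a CCAAT match, and that of Col4a6 held none of the motifs. Both genes have GGGCGG in the full 250-base windows searched below, outside the stretches shown.

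Col8a1, a short-chain network collagen of vessel walls and the cornea, stood at 7.61 in mtYAP, 6.98 in YAP and 7.31 in control. Its differences of 0.30 in mtYAP and −0.33 in YAP had opposite signs. The median of the 9 network genes was 0.11 in mtYAP and −0.19 in YAP. Of them, 2 lay below −1 in mtYAP (22.2%) and 1 in YAP (11.1%), against 4.06% and 1.26% of all genes. Over the 5 network genes with a mean level of at least 6, the mtYAP median turned to −0.45, and that of YAP was −0.33.

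Among the fibrillar collagens, the genes of types I, III and V, the bulk of fibroblast fibrils, stayed within 2-fold of control as gene means. Col11a1 and Col27a1 did not. A single probe set of Col1a2 and of Col5a2 in mtYAP, and of Col3a1 in YAP, passed the limit by a small margin. Col1a1 stood at 9.15 in mtYAP, 9.785 in YAP and 9.935 in control, with differences of −0.785 (1.72-fold lower) in mtYAP and −0.15 in YAP. Col1a2, whose product joins that of Col1a1 in type I collagen, stood at 11.04 in mtYAP, 11.37 in YAP and 11.74 in control, with differences of −0.70 in mtYAP and −0.36 in YAP. Both chains of type I were lowest in mtYAP and highest in control. The highest levels of Col1a2 probe sets were 13.56 in mtYAP, 13.69 in YAP and 14.03 in control. The 3 probe sets of Col1a2 lay between −1.01 and −0.47 from control in mtYAP, and the lowest of these values came from the dimmest of them.

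Col3a1 and Col5a2 are neighbours in the genome, and Col3a1 stood furthest above control in YAP while Col5a2 did so in mtYAP. Col3a1, which encodes the type III chain of elastic and healing tissue, stood at 10.92 in mtYAP, 11.805 in YAP and 11.085 in control, with differences of −0.165 in mtYAP and 0.72 (1.65-fold higher) in YAP. Its 2 probe sets lay 1.10 and 0.34 above control in YAP. Col5a2, a type V chain that helps start fibrils, stood at 10.93 in mtYAP, 10.325 in YAP and 10.035 in control, with differences of 0.895 (1.86-fold higher) in mtYAP and 0.29 in YAP. Its probe sets were 1.02 and 0.77 above control in mtYAP, and it had the highest difference of the 42 genes there. Col5a1, which encodes the chain that pairs with that of Col5a2, stood at 7.70 in mtYAP, 8.39 in YAP and 8.12 in control, with differences of −0.41 in mtYAP and 0.28 in YAP. It lay close to Col5a2 in YAP and on the other side of control in mtYAP. Col5a3 lay under 6 as a gene mean, but 1 of its 2 probe sets read 5.19 in mtYAP, 6.34 in YAP and 5.57 in control, and the other lay between 2.33 and 2.47.

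The stretch before the Col3a1 start, at chr1:45311288-45311537 (plus strand), GRCm38.p6, is shown because Col3a1 had the highest difference of the 42 genes in YAP and a GGAATG match, which no other fibrillar gene with a window in the table had.
Col3a1: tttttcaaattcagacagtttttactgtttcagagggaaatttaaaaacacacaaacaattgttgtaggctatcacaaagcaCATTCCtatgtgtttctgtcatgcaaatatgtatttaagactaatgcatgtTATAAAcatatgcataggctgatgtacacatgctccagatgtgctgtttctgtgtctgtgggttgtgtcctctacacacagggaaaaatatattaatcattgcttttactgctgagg
The GGAATG match reads CATTCC on the printed strand, a TATAAA match follows it, and the 250 bases hold 0 CpG. The gene was picked after its value and match were seen, and in mtYAP it lay at −0.165. GGAATG occurred in 11.1% of collagen windows, against 12.6% of the windows of all genes. Col1a1 and Col5a2 have no window and were not searched. Whether the match has a part in the Col3a1 levels was not tested.

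Col27a1, a fibrillar collagen of cartilage, stood at 6.255 in mtYAP, 6.805 in YAP and 7.825 in control, with differences of −1.57 (2.97-fold lower) in mtYAP and −1.02 (2.03-fold lower) in YAP. Its probe sets lay at −1.42 and −1.72 in mtYAP and at −0.58 and −1.46 in YAP. Col11a1, which nucleates fibrils in cartilage, stood at 4.60 in mtYAP, 3.805 in YAP and 6.03 in control. Its differences were −1.43 in mtYAP and −2.225 in YAP. The control level was just above 6 and both other levels lay near background, so the folds are not given and the order of mtYAP and YAP is not read. Sox9, a transcription factor of cartilage and the marker of another cell type that reached 6, stood at 5.02 in mtYAP, 5.44 in YAP and 6.22 in control, while the cartilage markers Acan, Comp and Matn1 lay under 4 on each array. Its part in the levels of Col11a1 and Col27a1 was not tested. The median of the 11 fibrillar genes was −0.35 in mtYAP and 0.04 in YAP. In each line 2 of them (18.2%) lay below −1, against 4.06% of all genes in mtYAP and 1.26% in YAP.

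Of the FACIT genes, Col16a1 was the one clearly expressed as a gene mean. Col16a1, which encodes a collagen associated with fibrillin microfibrils and thin fibrils, had 8.27 in mtYAP, 9.65 in YAP and 10.39 in control, with differences of −2.12 (4.35-fold lower) in mtYAP and −0.74 (1.67-fold lower) in YAP. The order of the arrays was that of the type VI genes, and the difference of mtYAP from YAP was −1.38.

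Col12a1, which encodes a FACIT collagen of dense connective tissue that binds type I fibrils, is a case where the probe sets of a gene disagreed. Over its 4 probe sets the mean was 3.77 in mtYAP, 4.02 in YAP and 5.01 in control, with differences of −1.24 in mtYAP and −0.9925 in YAP. The probe set with the highest level read 4.48 in mtYAP, 6.05 in YAP and 8.63 in control, a difference of −4.15 in mtYAP and −2.58 in YAP, with the mtYAP level near background and the YAP level just above 6. A further probe set read 5.28 in mtYAP, 5.14 in YAP and 6.34 in control. The other 2 stayed under 2.8 on all arrays and differed from control by 0.16 and 0.09 in mtYAP. The value of −4.15 was the lowest of the 82 collagen probe sets in mtYAP, and the gene mean includes the dim probe sets. The other 7 FACIT genes lay under 6 on every array, and the median of the 9 genes was 0.05 in mtYAP and 0.07 in YAP.

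**Figure D2:**
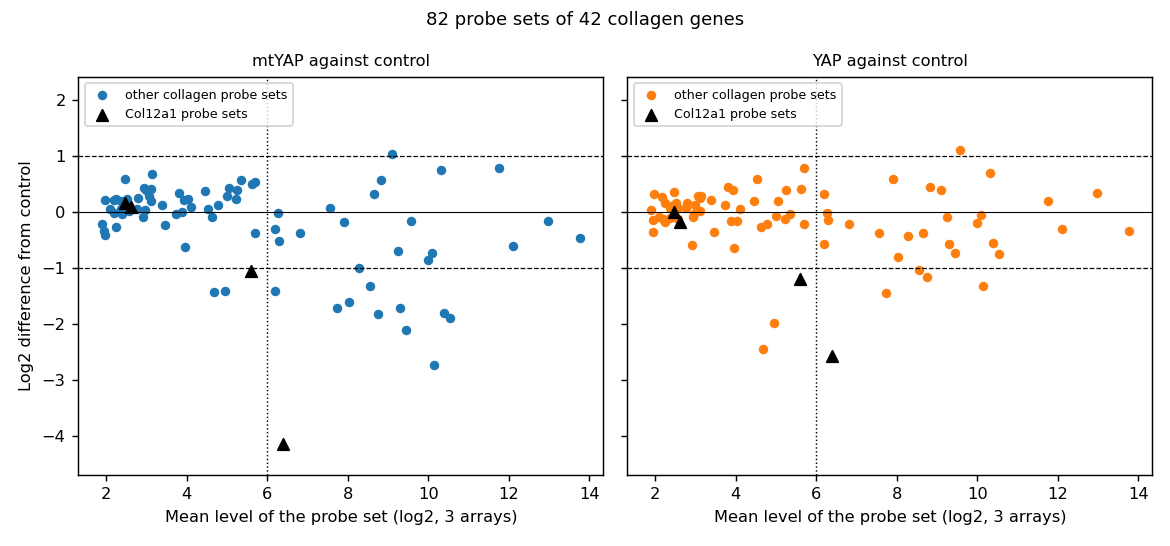
Log2 difference from control (vertical axis) against the mean level over the 3 arrays (horizontal axis) of 82 collagen probe sets, in mtYAP (left) and YAP (right), with Col12a1 as triangles, the 2-fold limits dashed and a level of 6 dotted. Among the 30 probe sets at 6 or more, 12 lie below −1 in mtYAP and 5 in YAP, and among the 52 dimmer ones 3 do in each.

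Apart from type VI, the 10 other collagens outside these classes (anchoring fibril, transmembrane, multiplexin and further types, with Col6a4 and Col6a5) were under 6 as gene means on every array. Among them, Col7a1 anchors the epidermis, Col17a1 spans the membrane of keratinocytes, and the multiplexins Col15a1 and Col18a1 lie at basement membranes. For the whole group of 13, the mtYAP median was −0.02 and the YAP median −0.23. The members below −1 were the 3 classical type VI genes in mtYAP (23.1%) and Col6a3 in YAP (7.69%), against 4.06% and 1.26% of all genes.

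Counted by probe set, 24 of the 30 collagen probe sets with a mean level of at least 6 were below control in mtYAP and 22 in YAP, where 49.8% and 44.4% of all 13625 such probe sets were. Of the 30, 12 lay below −1 in mtYAP, against 7.42% of all such probe sets, and 5 in YAP, against 1.71%. Their median was −0.66 in mtYAP and −0.325 in YAP. Of the 52 dimmer probe sets, 15 were below control in mtYAP (median 0.11) and 25 in YAP (median 0.02), and 3 lay below −1 in each, against 2.91% of all dim probe sets in mtYAP and 1.36% in YAP. Probe sets of a gene share its RNA and are not independent.

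**Figure D3:**
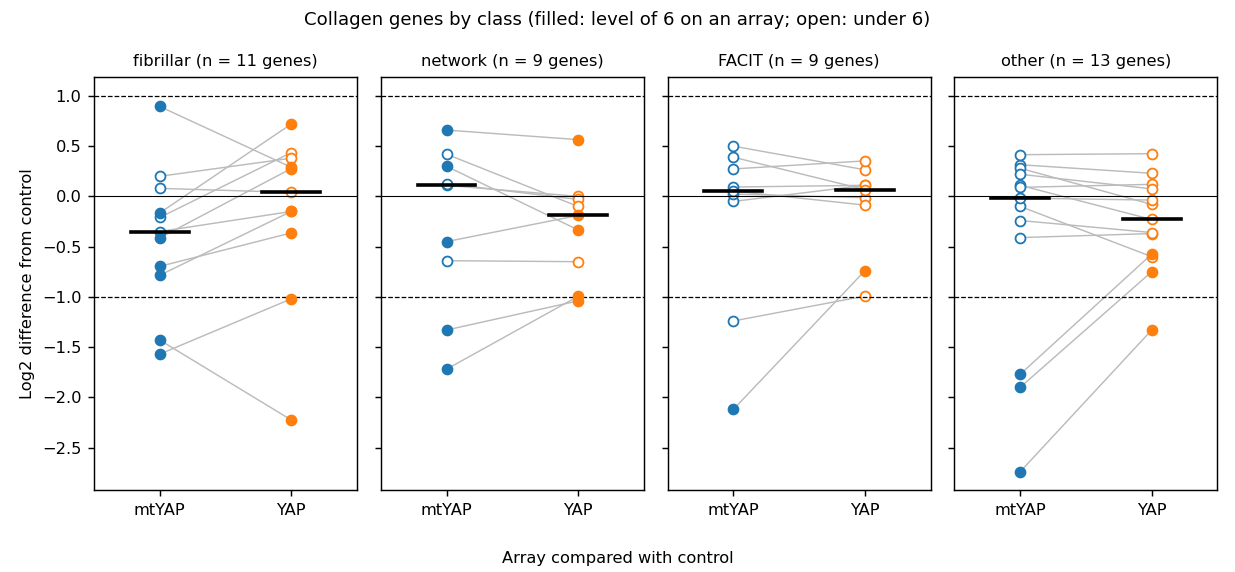
Log2 difference from control (vertical axis) of the 42 collagen genes in mtYAP and YAP (horizontal axis) by class, with grey lines joining a gene, filled points for genes that reached 6 on an array, open points for the others and black bars for class medians. Both lines share 1 control array, and the 9 genes below −1 in mtYAP come from all 4 classes.

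Directly between the lines, the genes lower in mtYAP than in YAP by more than 1 were Col6a3, Col16a1, Col6a2 and Col6a1. Among the other genes with a mean level of at least 6, Col3a1 followed at −0.885 (1.85-fold lower in mtYAP), Col4a1 at −0.725, Col5a1 at −0.69 and Col1a1 at −0.635. Col8a1 at 0.63 and Col5a2 at 0.605 were the highest of these genes. Over the 15 genes with a mean level of at least 6 the median of this difference was −0.635, where that of all genes at such levels was −0.04, and 4 of the 15 lay below −1, against 2.72% of such genes, and none above 1, against 0.987%.

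Several fibroblast markers outside the collagen family also stood lowest in mtYAP. Pdgfrb, a receptor of platelet-derived growth factor, stood at 7.07 in mtYAP, 8.59 in YAP and 9.685 in control. Pdgfra, the related receptor, stood at 7.62 in mtYAP, 9.67 in YAP and 10.03 in control. S100a4, a calcium-binding protein, had 11.66 in mtYAP, 12.84 in YAP and 13.34 in control, and Thy1, a surface glycoprotein, had 8.28 in mtYAP, 9.14 in YAP and 9.95 in control. Vim, the intermediate filament vimentin, stood at 12.76 in mtYAP, 13.09 in YAP and 12.92 in control, and Fn1, fibronectin, at 11.28 in mtYAP, 11.28 in YAP and 11.68 in control. These markers thus divided, with Vim and Fn1 within 0.4 of control, and their part in the collagen differences was not tested.

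Of 51 measured genes that make, bind or cleave collagen, 9 lay below −1 in mtYAP and 3 above 1, and 1 lay below −1 in YAP and 2 above 1. The shares were 17.6% below and 5.88% above in mtYAP, and 1.96% below and 3.92% above in YAP. Among all genes the shares were those given above, 4.06% and 3.77% in mtYAP and 1.26% and 1.36% in YAP. Of the 25 with a mean level of at least 6, 24.0% lay below and 8.0% above in mtYAP. All genes at such levels had 6.8% below and 6.88% above, so the share above is near theirs. The lists were chosen with earlier results of these data known, so the shares describe these lists only. Over the 51 genes, the mtYAP median was −0.105 and the YAP median −0.09.

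The 14 enzymes and partners that hydroxylate and glycosylate the chains divided within families. Plod2, a lysyl hydroxylase whose products are used for cross-links, was higher, at 8.195 in mtYAP, 8.045 in YAP and 6.88 in control, with differences of 1.315 (2.49-fold) in mtYAP and 1.165 (2.24-fold) in YAP. P4ha2, a catalytic subunit of prolyl 4-hydroxylase, stood at 9.06 in mtYAP, 8.85 in YAP and 8.02 in control, with differences of 1.04 in mtYAP and 0.83 in YAP. Lower were the prolyl 3-hydroxylase family genes P3h3, at 7.17 in mtYAP, 7.62 in YAP and 8.52 in control, and P3h1, at 5.76 in mtYAP, 6.14 in YAP and 6.825 in control, with differences in mtYAP of −1.35 for P3h3 and −1.065 for P3h1. P4ha3, at −1.18 in mtYAP, lay under 6 on every array. In all, 2 of the 14 lay above 1 (14.3%) and 3 below −1 (21.4%) in mtYAP, against 3.77% and 4.06% of all genes. In YAP, 1 lay above 1 (7.14%), against 1.36% of all genes.

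Of 8 genes of folding and export, 1 (12.5%, against 4.06% of all genes) lay below −1 in mtYAP. It was Fkbp14, a prolyl isomerase, at −1.04 and under 6 on all arrays. This value is the mean of 2 probe sets that disagreed, at −2.21 and 0.13. Sec24d, a coat protein of vesicles that leave the endoplasmic reticulum, stood at 9.23 in mtYAP, 9.92 in YAP and 10.12 in control. Sec23a, its partner, differed by −0.44 in mtYAP, Klhl12, a ubiquitin ligase adaptor for large vesicles, by 0.53 and Mia3, an export receptor of collagen, by −0.15. In propeptide trimming, Pcolce, an enhancer of the protease that removes the C-terminal propeptide, stood at 10.55 in mtYAP, 11.485 in YAP and 11.96 in control, a difference of −1.41 (2.66-fold lower) in mtYAP and −0.475 in YAP. Bmp1, which encodes that protease, lay at −1.15 in mtYAP, under 6 on all arrays, with its 3 probe sets between −1.86 and 0.03.

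The lysyl oxidases, which cross-link secreted collagen, went in both directions. Loxl4 stood at 6.10 in mtYAP, 5.37 in YAP and 4.355 in control, differences of 1.745 in mtYAP and 1.015 in YAP, with the YAP and control levels near background. Loxl3 stood at 6.98 in mtYAP, 7.59 in YAP and 8.12 in control, with differences of −1.14 in mtYAP and −0.53 in YAP. Lox and Loxl1 were lower by smaller amounts, at −0.69 and −0.725 in mtYAP.

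Of 8 genes of collagen cleavage, 2 lay below −1 in mtYAP (25.0%) and 1 in YAP (12.5%), against 4.06% and 1.26% of all genes. Mmp14, a membrane-bound collagenase, stood at 7.82 in mtYAP, 8.60 in YAP and 9.48 in control, with differences of −1.66 (3.17-fold lower) in mtYAP and −0.88 in YAP. Mmp2, a gelatinase that MMP14 activates, stood at 10.925 in mtYAP, 11.48 in YAP and 12.24 in control, with differences of −1.315 (2.49-fold lower) in mtYAP and −0.76 in YAP. Mmp9, a related gelatinase, lay at −0.74 in mtYAP and −1.45 in YAP, under 6 on every array. Among 9 receptors none passed 1 or −1, where 4.06% of all genes lay below −1 and 3.77% above 1 in mtYAP. In YAP these shares were 1.26% and 1.36%, so none of 9 is near the shares of all genes. Ddr2, a kinase receptor for fibrillar collagen, differed by 0.31 in mtYAP and 0.38 in YAP, Ddr1 by −0.13 in mtYAP and 0.19 in YAP, and Mrc2, an uptake receptor for collagen fragments, by −0.105 in mtYAP and −0.065 in YAP.

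**Figure D4:**
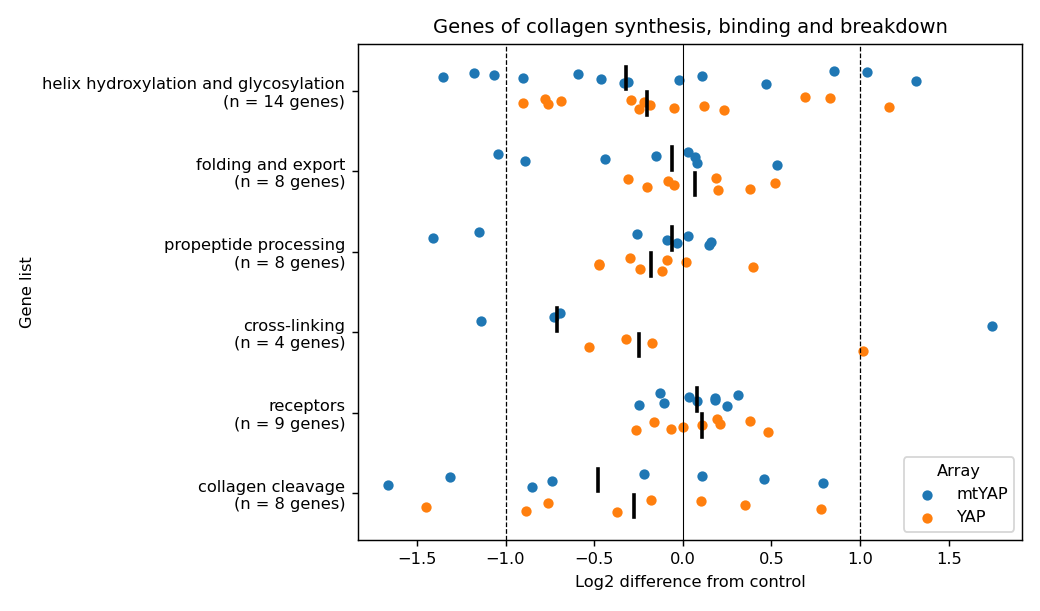
Log2 difference from control (horizontal axis) of 51 genes in 6 lists of collagen synthesis, binding and cleavage, in mtYAP (blue) and YAP (orange), with list medians as black bars, the 2-fold limits dashed and no meaning in the vertical spread. Plod2, P4ha2 and Loxl4 lie above 1 in mtYAP, and the receptors lie between −0.25 and 0.31 in mtYAP.

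Promoter windows, the 250 bases before an annotated start, were found for 33 of the 42 collagen genes, in 36 windows. GGGCGG occurred in 21 of them (58.3%), against 32.7% of 32851 windows of all genes. GGAATG occurred in 4 (11.1%), against 12.6%, in Col3a1, Col6a2, Col18a1 and Col20a1. CCAAT occurred in 36.1%, against 33.8%, TATAAA in 13.9%, against 12.4%, and TGANTCA in 2.78%, against 6.75%. Of the 8 genes below −1 in mtYAP that have a window, 5 held the GC box, 4 the CCAAT box, 1 the TEAD core, 1 the AP-1 sequence and none the TATA sequence. Of all 33 collagen genes with a window, 20 held the GC box, 13 the CCAAT box, 4 the TEAD core, 1 the AP-1 sequence and 5 the TATA sequence. Both strands were searched, matches of different motifs may overlap, and a match describes the letters only.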

How the data were processed

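RNA from control, mtYAP and YAP cells was hybridized once each to Affymetrix GeneChip Mouse Genome arrays. The authors subtracted background and normalized by RMA, and the deposited values are log2 levels per probe set. The submitters' notes name RMA and affy, without versions. Values have 2 decimals.

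Probe sets naming 1 gene (34945 of 45037) were averaged per gene. Names and neighbouring genes came from RefSeq (GRCm38.p6), where all 42 collagen symbols were found. Without replicates no test was run. Genes past a log2 difference of 1 or −1 were counted and medians set beside those of all genes, and the counting was tested on simulated data. Members, classes and gene lists were chosen with earlier results of these data known. Every collagen gene could be named, those at 6 on an array with all levels, and pathway genes past the limit or among the 4 largest of a list at 6. The 7 alternatives were the highest probe set, the median of probe sets, no _s, _x or _a probe sets, probe sets of several genes kept, a mean level of at least 6, the median difference removed and a loess (span 0.3) removed. A value counted as moved when it changed by more than 1.5 times. Python 3.11.15, numpy 2.4.6, pandas 2.3.3, statsmodels 0.14.6 and matplotlib 3.10.9 were used.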

Additional observations from a re-analysis of the deposited data

Results flagged for a closer look

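The signs of 3 clearly expressed collagen genes were opposite in mtYAP and YAP relative to control, with 1 array each, and the difference was not tested. Col3a1 lay at −0.165 in mtYAP and 0.72 in YAP, Col5a1 at −0.41 in mtYAP and 0.28 in YAP, and Col8a1 at 0.30 in mtYAP and −0.33 in YAP. For Col5a1, the probe set with the highest level lay at −0.74 in mtYAP and −0.06 in YAP, so its sign in YAP changes with the probe set.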

How the results depend on the processing

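No paired analysis was possible because each condition has 1 array. Of 175 summary values recomputed under the alternatives, 164 stayed within 1.5 times (medians as folds), and 18, all of them medians, changed sign. The collagen genes below −1 in mtYAP numbered between 7 and 9 and in YAP between 3 and 6. Leaving out _s, _x and _a probe sets gave 7 in mtYAP among 38 genes, where Col6a2 and Col16a1 had no probe set left. A mean level of at least 6 gave 7 in mtYAP and 3 in YAP among 15 genes. Col6a1, Col6a3 and Col16a1 have 1 probe set each, so the choice among probe sets could not change their values. With a mean level of at least 6 only, which leaves 15 collagen genes, the median was −0.785 in mtYAP and −0.635 for mtYAP against YAP. The FACIT value, then Col16a1 alone, was −2.12 in mtYAP, −0.74 in YAP and −1.38 between them, and the median of the other collagens, then the 3 type VI genes, was −1.90 in mtYAP and −1.195 for mtYAP against YAP. The FACIT medians in mtYAP and YAP and that last median were slightly above 0 without the filter, and the network medians turned to −0.45 in mtYAP and −0.26 for mtYAP against YAP. Under this filter 1 pathway gene lay above 1 in YAP and 0 below −1. With the median of probe sets 2 pathway genes lay below −1 in YAP, and the cause was not tested. Without _s, _x and _a probe sets 1 collagen gene, Col3a1, lay above 1 in YAP, since this leaves its probe set at 1.10. Of 230 values for 17 named genes, 2 moved by more than 1.5 times, both of Col12a1, at −4.15 in mtYAP and −2.58 in YAP in its highest probe set. Levels under 6 are called near background here, without a measured background. With 1 array per condition, the noise of each difference is unknown.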

Other observations

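Some genes of the collagen pathway were read differently by their own probe sets in mtYAP, and they are named here after their values were seen. Those of Fkbp14 lay between −2.21 and 0.13 from control, and those of Bmp1 between −1.86 and 0.03, with gene means of −1.04 for Fkbp14 and −1.15 for Bmp1. The probe sets of Loxl4 lay between 1.57 and 1.92, those of Mmp14 between −1.79 and −1.58 and those of Plod2 between 1.29 and 1.34. One of the 2 probe sets of Col25a1 read 6.26 in mtYAP, 6.26 in YAP and 6.28 in control, while the other stayed between 2.03 and 2.29.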
